A study of Drosophila melanogaster with 12 samples.

Results

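The translation factors and aminoacyl-tRNA synthetases described here are the 56 genes, of 14161 listed, whose symbol begins with Aats-, eIF, eRF, Ef1, Ef2 or EfT in the annotation used for counting. They comprise 21 tRNA synthetases, 28 genes named as initiation factors and 7 named as elongation or release factors. RNA was sequenced from whole Drosophila embryos of 2 genotypes, 3 samples per group, at collections labelled 0-1 hr (preblastoderm) and 1.5-2.5 hr. Wild type was OregonR, and SHMT embryos came from germline clones of SHMT[X238], so that egg and embryo developed without maternal SHMT[+] product. The study describes the mother and her follicle cells as heterozygous. X238 is a nonsense allele of the X-linked gene for serine hydroxymethyl transferase, the enzyme that interconverts serine and glycine and feeds folate-bound one-carbon units. Germline clones are made by heat-shock-driven Flipase in mothers of another stock than OregonR, so that the allele, the rest of its X chromosome and the clone procedure cannot be told apart in these groups. The labels do not give the full chromosome of the SHMT libraries, though the study states that it carried the marker pn. The X238 chromosome that the study lists with pn also carries y and sn.

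Before the zygotic genome is switched on, the fly embryo makes its proteins from RNA that the mother loaded into the egg. Each tRNA synthetase joins an amino acid to its tRNA, and separate nuclear genes usually encode the cytosolic and the mitochondrial enzyme. In initiation, eIF4E binds the mRNA cap, eIF4G bridges cap and ribosome, the helicase eIF4A unwinds the leader, eIF2 brings the initiator tRNA, eIF2B recharges eIF2 with GTP and eIF3 holds the small ribosomal subunit. In elongation, eEF1A delivers charged tRNAs, eEF1B (beta and gamma) recharges eEF1A and eEF2 moves the ribosome on, until eRF1 reads the stop codon.

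Between 21045142 and 35106444 reads per library fell in genes. Values are CPM, the reads of a gene set against a fixed total of reads per library, after scaling by TMM, a trimmed mean of log ratios between libraries. The stage labels and the stage markers ran against each other. The summed level of 12 zygotic genes, such as the patterning gene eve and the cellularization genes slam and kuk, was 11580 to 16160 CPM in wild type under the 0-1 hr label and 900 to 992 CPM under the 1.5-2.5 hr label. In SHMT it was 6704 to 10616 CPM and 755 to 913 CPM. The sum of 10 maternal genes ran the other way, at 855 to 1054 CPM and 3061 to 3361 CPM in wild type against 1242 to 1551 CPM and 2442 to 2794 CPM in SHMT. All libraries are therefore named by their label only, no library was moved, and no direction in time is drawn from a stage difference. Follicle cell genes summed to at most 4.85 CPM, muscle and nerve genes to at most 8.01 CPM and testis genes to at most 1.14 CPM in any library. RNA of SHMT (CG3011) was 4.08 CPM in wild type against 6.47 CPM in SHMT under the 0-1 hr label (log2 difference 0.67, adjusted p = 0.0048), and 84.3 and 105 CPM under the 1.5-2.5 hr label (adjusted p = 0.21). A nonsense allele need not lower its RNA, so these values do not check the genotype labels.

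Of the 56 genes, 51 reached the mean of 50 counts in at least 1 group that was required for testing. The 5 others were the cap-binding paralogues eIF4E-3, eIF4E-4, eIF4E-5, eIF4E-6 and eIF4E-7, eIF4E-3 being known from spermatogenesis. eIF4E-4 had 0 counts in all 12 libraries, which allows at most 0.0746 to 0.167 CPM per library, counting error only. eIF4E-3 had 0 counts in each wild-type library under the 0-1 hr label and 3, 5 and 1 in SHMT, too few for a fold. By current names, 6 synthetases are mitochondrial, namely Aats-ala-m, Aats-leu, Aats-met, Aats-phe, Aats-pro and Aats-ser. The other 15 are called cytosolic here. The list by current name holds no separate mitochondrial gene for glutamine, glycine, histidine, lysine or threonine. Whether Aats-gln, Aats-gly, Aats-his, Aats-lys and Aats-thr also serve mitochondria was not examined. The symbol eIF-5A belongs to a factor that is now classed as an elongation factor (eEF5), but it is counted here by its symbol. The genes lie on every major arm, with 6 on 2L, 13 on 2R, 14 on 3L, 14 on 3R, 1 on chromosome 4 (eIF4G) and 8 on the X.

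Level per kilobase of exon spread far more among the synthetases under the 0-1 hr label than under the 1.5-2.5 hr label. In wild type under the 0-1 hr label the 15 cytosolic enzymes ran from 0.454 CPM per kb for Aats-glupro, the bifunctional glutamyl- and prolyl-tRNA synthetase, to 159 CPM per kb for Aats-lys, a ratio of 350. Under the 1.5-2.5 hr label they ran from 23.0 (Aats-glupro) to 96.8 CPM per kb (Aats-lys), a ratio of 4.22. SHMT embryos gave ratios of 162 and 4.73 over the same 15 genes. The 6 mitochondrial enzymes gave ratios of 23.6 and 4.34 in wild type and 9.23 and 3.30 in SHMT. Thus under the 1.5-2.5 hr label these 15 and these 6 genes each lay within a 5-fold range per kb in both genotypes. Synthetases under other symbols are not part of these ranges. Among them, the mitochondrial CG31739 and CG6796 stood at 258 and 7.54 CPM, not set per kb, in wild type at that label.

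**Figure D1:**
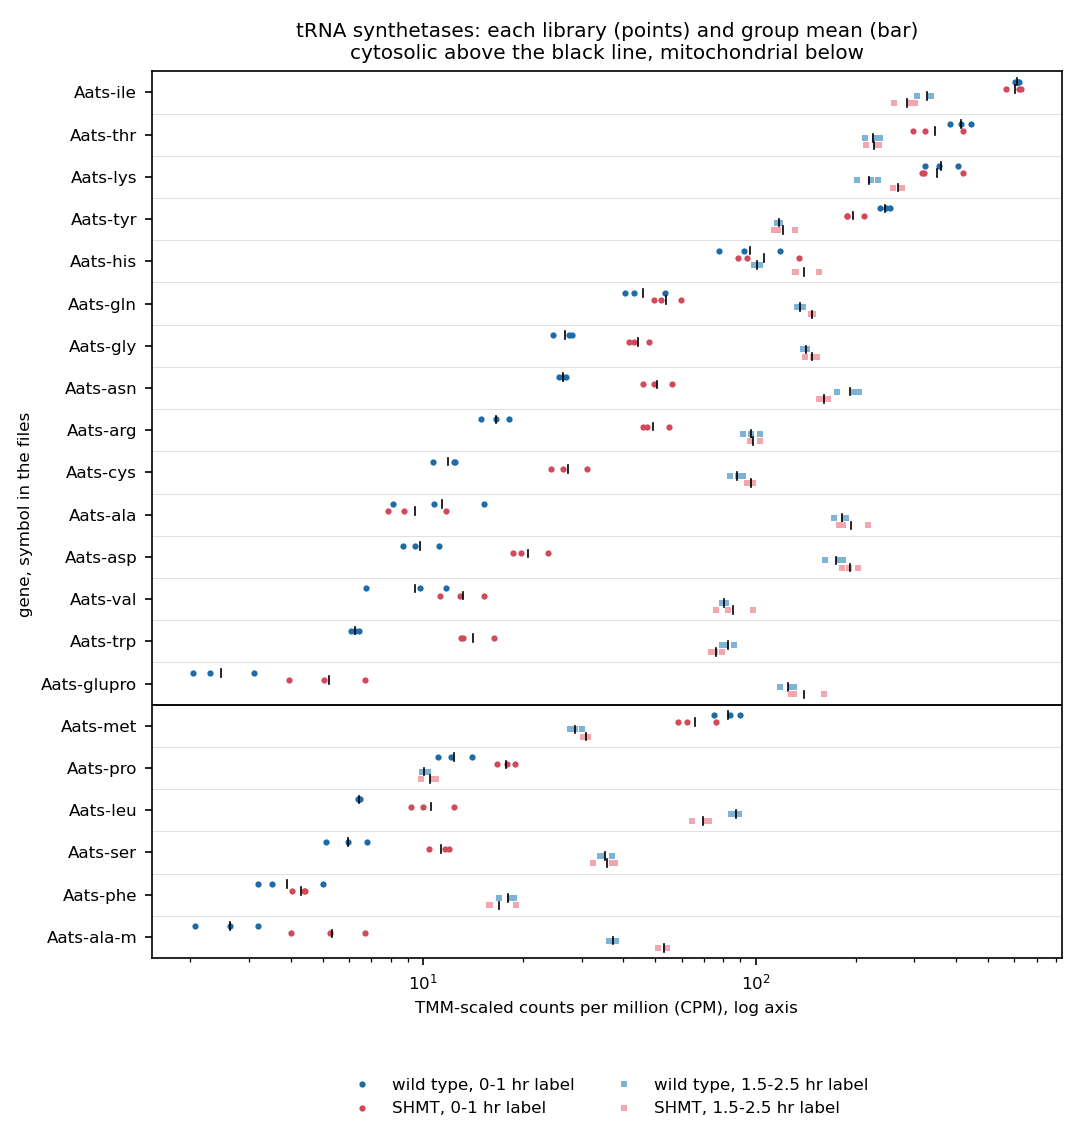
Level of each of the 21 tRNA synthetases in all 12 libraries, in TMM-scaled CPM on a log axis. Points are libraries and black bars are means of 3. Most enzymes sit far apart between the labels, up to Aats-glupro at 2.04 to 3.11 CPM in wild type under the 0-1 hr label and 118 to 130 CPM under the 1.5-2.5 hr label, while Aats-ile, Aats-thr, Aats-lys, Aats-tyr and Aats-met lie higher under the 0-1 hr label.

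The difference between stage labels was asked in each genotype apart. In wild type, 47 of 51 genes differed at an adjusted p under 0.05, with 25 higher and 22 lower under the 1.5-2.5 hr label. Over all 6884 genes tested, 91.3% were called, 45.4% higher and 45.9% lower, so the number of calls was near the background. In SHMT, 48 of 51 were called, with 27 higher and 21 lower, where 87.4% of all genes were called, 42.8% higher and 44.6% lower. The classes were split differently: 14 synthetases were higher and 6 lower in wild type (median log2 difference 2.55), while 11 factors were higher and 16 lower (median -0.65). The median over all genes was -0.04. In SHMT, 15 synthetases were higher and 6 lower (median 1.67), and 12 factors were higher and 15 lower (median -0.29), beside a median of -0.06 over all genes. The wild-type libraries of the 2 labels did not overlap for 49 of 51 genes, against 91.8% of all genes, and the SHMT libraries for 47 of 51, against 88.9%.

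The 2 genotypes share no library in these stage comparisons. In both, 25 genes were called higher and 21 lower, and none was called in opposite directions. Across the 51 genes the log2 stage differences of the genotypes had a Pearson r of 0.96 and a Spearman rho of 0.95, a description over genes, which are not independent, beside 0.95 and 0.94 over all 6884. A 16-fold difference, the limit the study set between stages, was passed by Aats-glupro and Aats-asp in wild type and by Aats-glupro and Aats-ala in SHMT, all higher under the 1.5-2.5 hr label. Over all genes, 11.7% passed it upwards and 4.71% downwards in wild type, and 5.48% and 3.99% in SHMT. Scaling by library sizes alone, in place of TMM, moved the median of all genes from -0.04 to 0.48 in the wild-type comparison and from -0.06 to 0.21 in the SHMT comparison, so stage differences smaller than this hold relative to that median only.

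**Figure D2:**
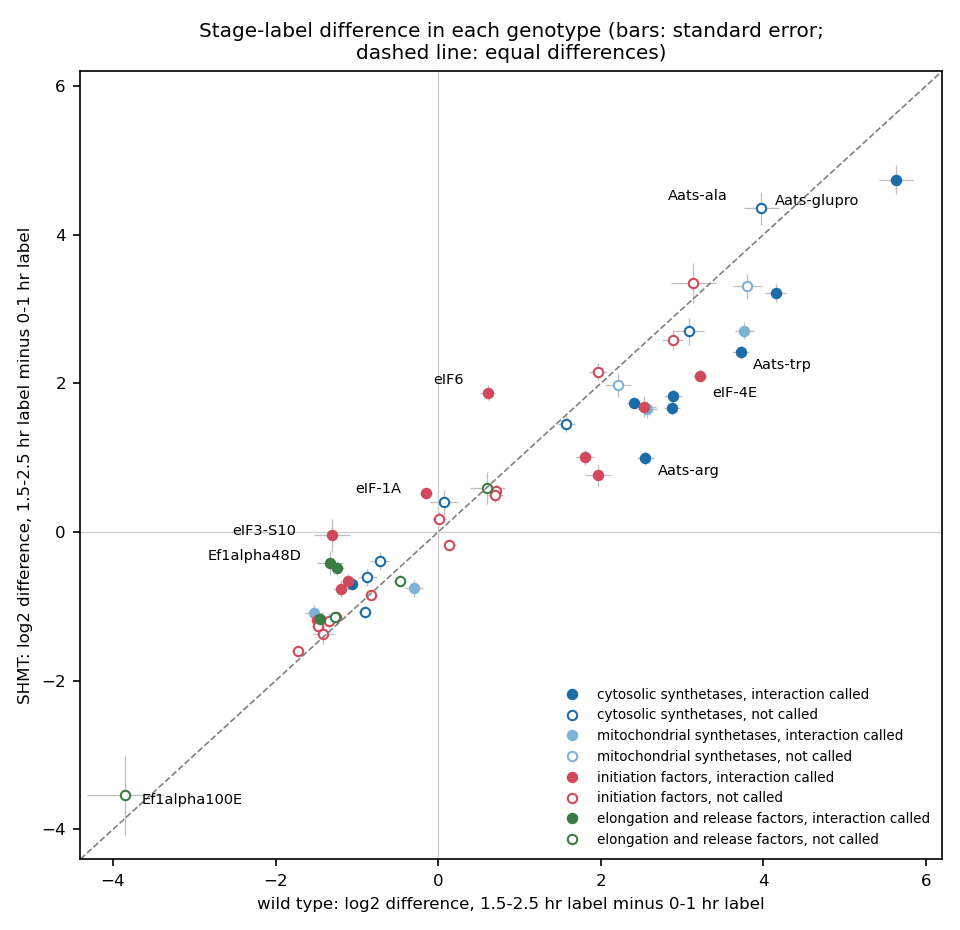
Log2 difference of the 1.5-2.5 hr label minus the 0-1 hr label in wild type (horizontal) and in SHMT (vertical) for the 51 tested genes. Error bars are standard errors, the dashed line marks equal differences and filled points mark a called interaction. Both axes reach their highest value at Aats-glupro (5.64 and 4.74) and their lowest at Ef1alpha100E (-3.85 and -3.54), and eIF6, eIF-1A and eIF3-S10 lie above the line.

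Among cytosolic synthetases, Aats-glupro had the largest stage difference. Its libraries read 3.11, 2.29 and 2.04 CPM in wild type under the 0-1 hr label and 118, 130 and 127 CPM under the 1.5-2.5 hr label, a log2 difference of 5.64 ± 0.21 (SE, adjusted p = 2.1e-10). In SHMT they read 3.95, 5.04 and 6.70 CPM against 160, 128 and 130 CPM, a log2 difference of 4.74 ± 0.19. The labels were far apart in both genotypes, and all 3 SHMT libraries under the 0-1 hr label lay above the wild-type ones. Aats-asp, the aspartyl enzyme, was at 9.78 ± 1.26 CPM (SD, n = 3) under the 0-1 hr label and 174 ± 10.9 CPM under the 1.5-2.5 hr label in wild type (log2 4.15 ± 0.13, adjusted p = 7.1e-11). In the BDGP6 annotation, another build than that of the counting, the merged exons of Aats-asp are covered over 73.5% by Nmda1 and antisense RNAs. Its counts may therefore include reads of other genes or lack reads that were left uncounted because genes share them. Aats-ala, the alanyl enzyme, read 15.3, 8.14 and 10.8 CPM under the 0-1 hr label and 172, 188 and 185 CPM under the 1.5-2.5 hr label in wild type (log2 3.98 ± 0.21, adjusted p = 3.4e-09). Its log2 difference in SHMT was 4.36 ± 0.22. Aats-trp, the tryptophanyl enzyme, differed by 3.72 ± 0.11 in wild type and 2.42 ± 0.10 in SHMT.

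The 4 cytosolic enzymes that were lower under the 1.5-2.5 hr label were those for isoleucine, lysine, threonine and tyrosine. Aats-ile read 615, 618 and 602 CPM in wild type under the 0-1 hr label and 338, 306 and 337 CPM under the 1.5-2.5 hr label (log2 -0.91 ± 0.08, adjusted p = 2.5e-07), and differed by -1.08 ± 0.08 in SHMT. Aats-tyr differed by -1.06 ± 0.08 and -0.70 ± 0.08, Aats-thr by -0.87 ± 0.12 and -0.61 ± 0.12, and Aats-lys by -0.72 ± 0.12 and -0.39 ± 0.12 in wild type and SHMT. Per kb these were the 4 highest cytosolic synthetases under the 0-1 hr label in both genotypes, at 138 to 159 CPM per kb in wild type. When scaled by library size alone, Aats-lys lost its call in both genotypes (log2 -0.20 and -0.10). Aats-his, the histidyl enzyme, read 77.9, 92.6 and 118 CPM against 101, 98.7 and 103 CPM in wild type and was not called (log2 0.07 ± 0.17, adjusted p = 0.70). In SHMT its difference of 0.40 ± 0.17 was called at an adjusted p of 0.044 while the libraries of the labels overlapped, and the call was lost without any of 5 libraries (WT 1.5-2.5 hr replicate 2, SHMT 0-1 hr replicates 1 and 2, SHMT 1.5-2.5 hr replicates 1 and 2), with an adjusted p of up to 0.15.

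Of the 6 mitochondrial synthetases, 4 were higher and 2 lower under the 1.5-2.5 hr label, in either genotype. In the order of the labels, Aats-ala-m was at 2.63 ± 0.562 and 37.3 ± 0.939 CPM in wild type (log2 3.80 ± 0.18, adjusted p = 1.2e-09) and Aats-leu at 6.41 ± 0.0463 and 87.2 ± 2.44 CPM (log2 3.76 ± 0.12, adjusted p = 7.1e-11). Aats-ser and Aats-phe differed by 2.57 ± 0.12 and 2.21 ± 0.16. Aats-met read 75.2, 83.8 and 89.7 CPM under the 0-1 hr label and 30.0, 27.6 and 28.6 CPM under the 1.5-2.5 hr label in wild type (log2 -1.53 ± 0.11, adjusted p = 3.2e-08). It was the highest mitochondrial enzyme per kb under the 0-1 hr label, at 19.2 CPM per kb in wild type, and lay below Aats-leu at the other label. Aats-pro differed by -0.29 ± 0.11 in wild type (adjusted p = 0.025) and -0.76 ± 0.11 in SHMT. Its wild-type call was lost without any of 5 libraries (WT 0-1 hr replicate 2, each WT 1.5-2.5 hr library and SHMT 1.5-2.5 hr replicate 3), with an adjusted p of up to 0.19, and the sign turned to 0.22 under library sizes alone.

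Between genotypes under the 0-1 hr label, 33 of the 51 genes differed, 18 higher and 15 lower in SHMT. Over all genes tested, 58.7% were called, 32.9% higher and 25.8% lower, so the share of 64.7% was again near the background, and the libraries did not overlap for 32 of 51 genes against 60% of all genes. The classes pointed in different directions. Among the synthetases 12 were higher and 2 lower (median log2 difference 0.52), while among the 30 tested factors 6 were higher and 13 lower (median -0.15), beside a median of 0.02 over all genes. None passed the 4-fold limit of the study, which 2.7% of all genes passed upwards and 1.38% downwards. Scaling by library sizes alone moved the median of all genes to 0.25 and the share of higher genes among all calls from 56.1% to 78.0%, and with it the counts to 13 higher and 0 lower synthetases and to 10 higher and 5 lower factors. With no minimum beyond 1 count, 4014 of 12206 genes were called, against 4040 of 6884 in the main fit. In the set, 11 calls were lost under that setting (Aats-met, Ef1beta, Ef2b, eIF-2alpha, eIF-3p66, eIF-4a, eIF-5A, eIF2B-beta, eIF3-S8, eIF4AIII and eIF4G), with adjusted p of 0.056 to 0.22. The direction given for a small difference therefore holds relative to the median of all genes. At this label 6 of 12 zygotic markers were lower (median -0.97) and 5 of 10 maternal markers higher (median 0.55) in SHMT, and the part of this in the differences below was not tested. Fewer cells of a type and less RNA per cell cannot be told apart in whole embryos.

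**Figure D3:**
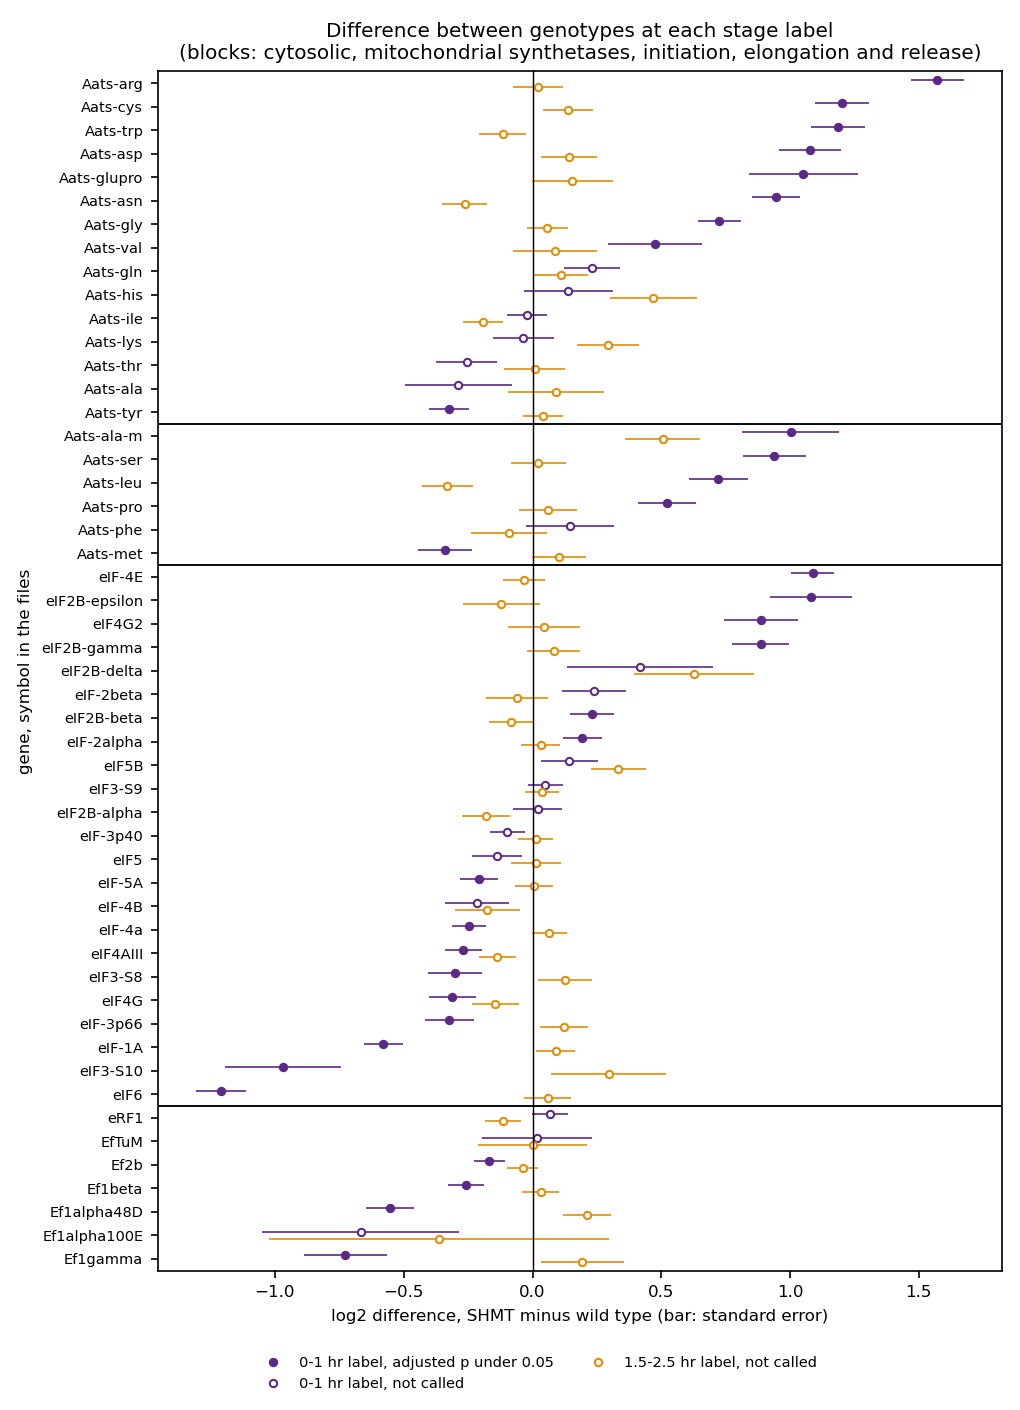
Log2 difference of SHMT minus wild type for the 51 tested genes under the 0-1 hr label (purple) and under the 1.5-2.5 hr label (orange), with standard errors. Filled points passed an adjusted p of 0.05. Under the 0-1 hr label values run from -1.21 (eIF6) to 1.57 (Aats-arg), and under the 1.5-2.5 hr label from -0.36 to 0.63 with no point filled.

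Aats-arg, the X-linked arginyl enzyme, differed most between genotypes. It read 16.6, 18.2 and 15 CPM in wild type against 47.1, 54.9 and 45.8 CPM in SHMT under the 0-1 hr label, a log2 difference of 1.57 ± 0.10 (adjusted p = 5.7e-07). The groups were well apart, and under the 1.5-2.5 hr label they overlapped at 96.8, 103 and 91.5 CPM against 96.2, 103 and 95.9 CPM. Aats-cys, the cysteinyl enzyme, read 10.7, 12.4 and 12.5 CPM in wild type against 26.4, 24.2 and 31.2 CPM in SHMT (log2 1.20 ± 0.11, adjusted p = 4.7e-06). Aats-trp read 6.26, 6.41 and 6.06 CPM against 13.0, 16.3 and 13.2 CPM (log2 1.18 ± 0.10, adjusted p = 4.5e-06). For each of these enzymes the lowest SHMT library lay above the highest wild-type library. Aats-asp, with its exon overlap, differed by 1.08 ± 0.12 and Aats-glupro by 1.05 ± 0.21. Aats-asn, the asparaginyl enzyme, differed by 0.95 ± 0.09. Aats-val was called with overlapping libraries (6.75 to 11.7 CPM against 11.3 to 15.3 CPM, log2 0.47 ± 0.18, adjusted p = 0.041), and its call was lost without any of 8 libraries (WT 0-1 hr replicates 1 and 2, each WT 1.5-2.5 hr library, SHMT 0-1 hr replicates 2 and 3 and SHMT 1.5-2.5 hr replicate 3), with an adjusted p of up to 0.13.

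The enzymes for glycine, serine and methionine charge the amino acids nearest to the SHMT reaction. Aats-gly, which serves glycine, read 24.6, 28.1 and 27.5 CPM in wild type against 41.7, 43.0 and 48.0 CPM in SHMT under the 0-1 hr label (log2 0.73 ± 0.08, adjusted p = 3.2e-05). The groups overlapped under the 1.5-2.5 hr label, at 142 ± 2.04 and 147 ± 6.55 CPM. The mitochondrial Aats-ser read 5.12, 6.8 and 5.96 CPM against 11.7, 12 and 10.5 CPM (log2 0.94 ± 0.12, adjusted p = 7.0e-05). The mitochondrial Aats-met was lower in SHMT, at 82.9 ± 7.29 CPM in wild type against 65.6 ± 9.24 CPM (log2 -0.34 ± 0.10, adjusted p = 0.016), and SHMT replicate 3, at 76.0 CPM, overlapped the wild-type range. The call for Aats-met was lost without SHMT 0-1 hr replicate 1 or 2 (adjusted p of up to 0.057) and under library sizes alone (adjusted p = 0.32). The cytosolic enzymes for serine and methionine carry other symbols and are named here after their values were seen. SerRS (CG17259) was 21.9 ± 3.9 CPM in wild type against 21.6 ± 7.0 CPM in SHMT (adjusted p = 0.94), and MetRS (CG15100) 0.996 ± 0.22 and 4.33 ± 2.0 CPM (log2 2.12, adjusted p = 0.00051).

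Of the remaining mitochondrial synthetases, Aats-ala-m (1.00 ± 0.19), Aats-leu (0.72 ± 0.11) and Aats-pro (0.52 ± 0.11) were higher in SHMT under the 0-1 hr label, and Aats-phe was not called (0.15 ± 0.17, adjusted p = 0.49). Among cytosolic enzymes Aats-tyr was the only one called lower, at 236, 247 and 253 CPM in wild type against 188, 189 and 211 CPM in SHMT (log2 -0.32 ± 0.08, adjusted p = 0.0042), and library sizes alone ended this call (adjusted p = 0.27). Aats-ala, Aats-gln, Aats-his, Aats-ile, Aats-lys and Aats-thr were not called. Aats-ile and Aats-lys, among the highest synthetases per kb, gave -0.02 ± 0.08 and -0.04 ± 0.12.

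**Figure D4:**
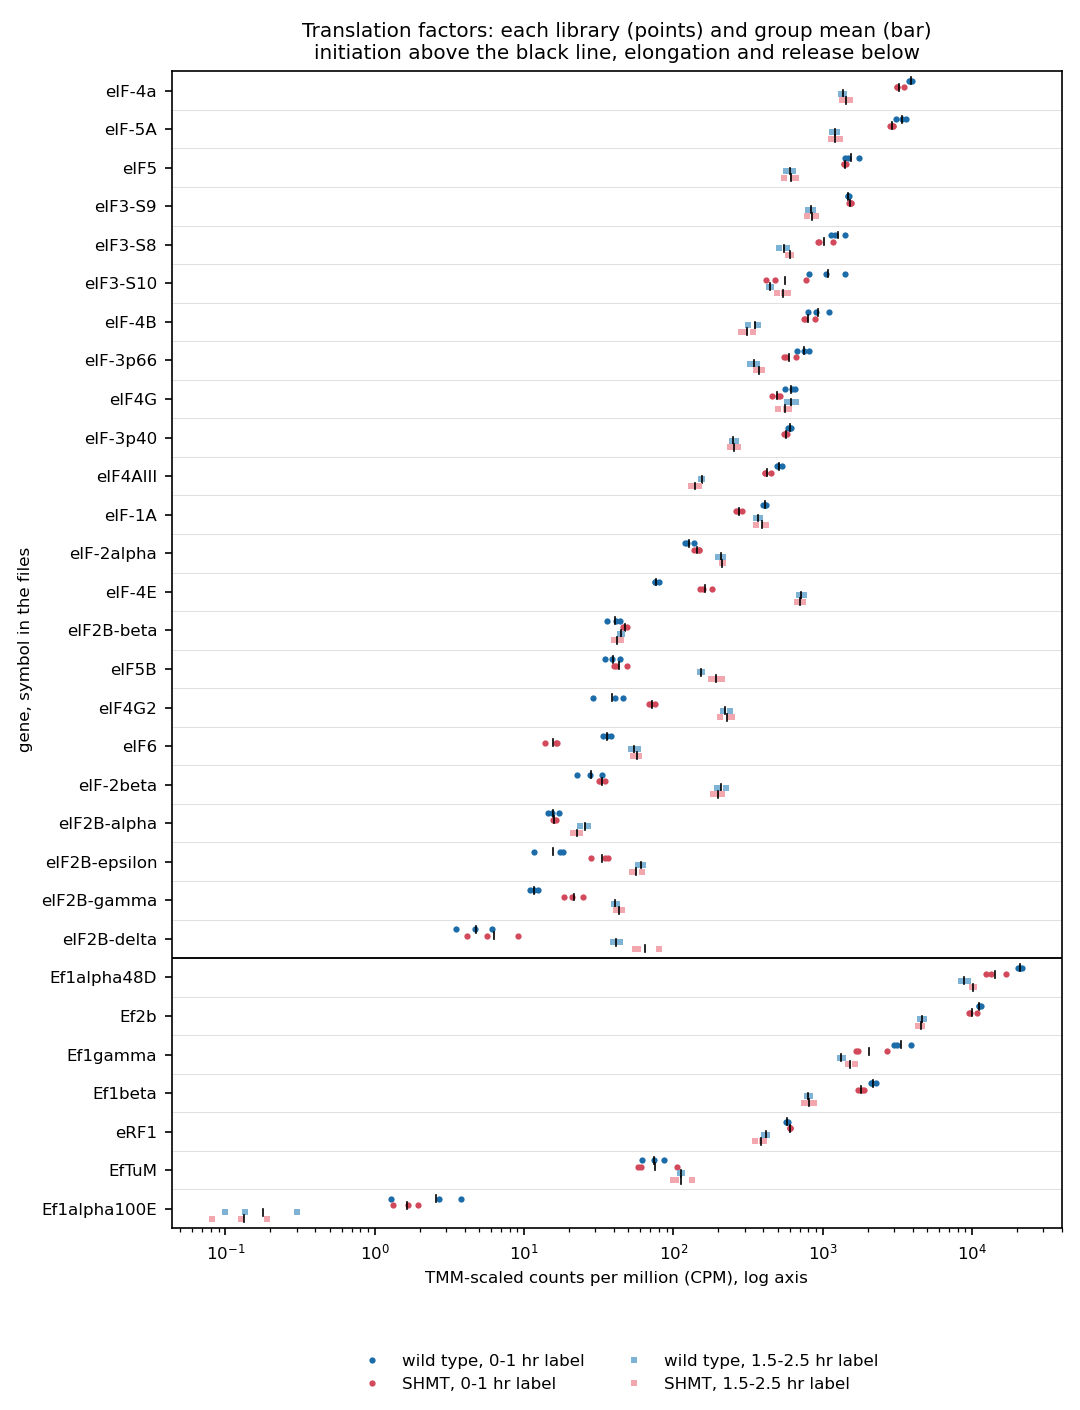
Level of the 30 tested translation factors in all 12 libraries, in TMM-scaled CPM on a log axis, with black bars at the means of 3. The elongation factors Ef1alpha48D, Ef2b, Ef1gamma and Ef1beta lie to the right and are higher under the 0-1 hr label, while eIF-4E lies at 75.3 to 80.2 CPM in wild type under the 0-1 hr label and at 695 to 749 CPM under the 1.5-2.5 hr label.

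The parts of the cap-binding complex differed in different directions. eIF-4E, the cap-binding protein itself, read 75.3, 80.2 and 75.3 CPM in wild type under the 0-1 hr label and 713, 749 and 695 CPM under the 1.5-2.5 hr label (log2 3.22 ± 0.09, adjusted p = 4.5e-11). In SHMT it read 150, 182 and 159 CPM and 674, 735 and 701 CPM (log2 2.1 ± 0.08, adjusted p = 8.9e-10). The SHMT libraries under the 0-1 hr label were thus all above the wild-type ones (log2 1.09 ± 0.08, adjusted p = 1.6e-06), and the genotypes overlapped at the other label. eIF-4a, the helicase, read 3969, 3860 and 3785 CPM in wild type under the 0-1 hr label and 1395, 1333 and 1398 CPM under the 1.5-2.5 hr label (log2 -1.49 ± 0.07, adjusted p = 9.1e-10). It was lower in SHMT under the 0-1 hr label, at 3161, 3132 and 3486 CPM (log2 -0.25 ± 0.07, adjusted p = 0.0077), and this call was lost under library sizes alone (log2 -0.02) and without WT and SHMT 0-1 hr replicate 1, the libraries with most reads outside genes (log2 -0.14, adjusted p = 0.15). eIF4G, the scaffold, was called between labels in neither genotype, at 610 ± 43.1 and 615 ± 39.4 CPM in wild type, and was lower in SHMT under the 0-1 hr label (log2 -0.31 ± 0.09, adjusted p = 0.012). The eIF4G call was also lost under library sizes alone (log2 -0.081, adjusted p = 0.48) and without the same pair of libraries (adjusted p = 0.15). Per kb, eIF-4E, eIF4G and eIF-4a stood at 34.4, 92.9 and 1561 CPM in wild type under the 0-1 hr label and at 322, 93.7 and 554 CPM under the 1.5-2.5 hr label.

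Of the other genes of this complex, eIF4G2, a paralogue of eIF4G known from spermatogenesis, read 40.9, 28.8 and 46.0 CPM in wild type against 70.9, 75.1 and 68.2 CPM in SHMT under the 0-1 hr label (log2 0.89 ± 0.14, adjusted p = 0.00035). It was at 223 ± 14.5 and 230 ± 20.8 CPM under the 1.5-2.5 hr label. eIF-4B, which assists the helicase, was lower under the 1.5-2.5 hr label (log2 -1.41 ± 0.13 in wild type) and not called between genotypes (log2 -0.22 ± 0.13, adjusted p = 0.16). eIF4AIII, a helicase of the exon junction complex rather than of initiation, had the largest difference in favour of the 0-1 hr label among genes named as initiation factors, at 505, 537 and 493 CPM there and 154, 155 and 154 CPM under the 1.5-2.5 hr label in wild type (log2 -1.73 ± 0.07, adjusted p = 5.8e-10), and was lower in SHMT under the 0-1 hr label (log2 -0.27 ± 0.07, adjusted p = 0.0077). That eIF4AIII call was lost under library sizes alone (log2 -0.045, adjusted p = 0.63) and without WT and SHMT 0-1 hr replicate 1 (adjusted p = 0.094).

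The 5 subunits of eIF2B, the exchange factor for eIF2, lay unequally under the 0-1 hr label and close together under the 1.5-2.5 hr label. Per kb in wild type they read 15.6 (alpha), 29.8 (beta), 7.51 (gamma), 2.18 (delta) and 6.41 CPM (epsilon) under the 0-1 hr label. Under the 1.5-2.5 hr label they read 25.4, 32.8, 26.3, 19.1 and 24.9 CPM per kb, and in SHMT 22.5, 31.0, 27.8, 29.6 and 22.9 CPM per kb. Hence 4 of 5 were called higher under the 1.5-2.5 hr label in each genotype and eIF2B-beta in neither, and eIF2B-delta differed most (log2 3.14 ± 0.27 in wild type and 3.35 ± 0.27 in SHMT). Between genotypes under the 0-1 hr label, eIF2B-epsilon, the catalytic subunit, read 11.6, 17.3 and 18.1 CPM in wild type against 27.9, 34.7 and 36.6 CPM in SHMT (log2 1.08 ± 0.16, adjusted p = 0.00017). eIF2B-gamma read 10.9, 11.6 and 12.4 CPM against 20.8, 24.9 and 18.6 CPM (log2 0.89 ± 0.11, adjusted p = 5.5e-05). Both were apart between genotypes at this label and overlapped at the other. eIF2B-beta was called with a small difference (log2 0.23 ± 0.09, adjusted p = 0.037) that was lost without any of 8 libraries (WT 0-1 hr replicates 1 and 3, each WT 1.5-2.5 hr library, SHMT 0-1 hr replicates 1 and 2 and SHMT 1.5-2.5 hr replicate 3), with an adjusted p of up to 0.13. The alpha and delta subunits were not called (log2 0.02 ± 0.10 and 0.42 ± 0.28).

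Of eIF2 itself, eIF-2alpha, the subunit that stress kinases phosphorylate, was at 127 ± 9.87 CPM under the 0-1 hr label and 208 ± 8.30 CPM under the 1.5-2.5 hr label in wild type (log2 0.71 ± 0.08, adjusted p = 1.6e-06). In the same order eIF-2beta was at 27.9 ± 5.29 and 207 ± 16.6 CPM (log2 2.89 ± 0.13, adjusted p = 9.1e-10). Per kb, eIF-2alpha was thus above eIF-2beta under the 0-1 hr label (83.5 and 24.7 CPM) and below it under the 1.5-2.5 hr label (137 and 184 CPM). Between genotypes under the 0-1 hr label, eIF-2alpha was called with overlapping libraries (120 to 138 CPM against 137 to 149 CPM, log2 0.19 ± 0.08, adjusted p = 0.046). This call was lost under DESeq2 (adjusted p = 0.058) and without any of 9 libraries (WT 0-1 hr replicates 1 and 3, each WT 1.5-2.5 hr library, and replicates 2 and 3 of both SHMT groups), with an adjusted p of up to 0.19. eIF-2beta was not called (log2 0.24 ± 0.13, adjusted p = 0.12).

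All 5 eIF3 subunits that the set holds by symbol were lower under the 1.5-2.5 hr label in wild type, by log2 differences of -0.83 (eIF3-S9, subunit b) to -1.30 (eIF3-S10, subunit a). Any eIF3 subunit under another symbol was not examined. In SHMT 4 of 5 were, and eIF3-S10 gave -0.04 ± 0.22 (adjusted p = 0.87). eIF3-S10 read 1053, 805 and 1415 CPM in wild type against 481, 419 and 772 CPM in SHMT under the 0-1 hr label (log2 -0.97 ± 0.23, adjusted p = 0.0035). The groups did not overlap, but SHMT replicate 3 at 772 CPM came close to the lowest wild-type library at 805 CPM. Under the 1.5-2.5 hr label it read 453, 434 and 438 CPM and 586, 493 and 547 CPM (adjusted p = 0.56). eIF-3p66 (subunit d) and eIF3-S8 (subunit c) were also called lower in SHMT under the 0-1 hr label, by -0.32 ± 0.09 (adjusted p = 0.012) and -0.30 ± 0.10 (adjusted p = 0.027). The first call was lost without SHMT 0-1 hr replicate 1 (adjusted p = 0.053) and the second without WT 0-1 hr replicate 3 or SHMT 0-1 hr replicate 1 or 2 (adjusted p of up to 0.10), and both under library sizes alone. eIF3-S9 and eIF-3p40 (subunit h) were not called (log2 0.05 ± 0.07 and -0.10 ± 0.07).

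The genes that act at the start codon and in subunit joining did not move as a block. eIF6, which keeps the large ribosomal subunit from joining too early, was the factor with the largest difference in favour of wild type. It read 33.7, 37.9 and 36.2 CPM in wild type against 13.8, 16.2 and 16.6 CPM in SHMT under the 0-1 hr label (log2 -1.21 ± 0.10, adjusted p = 2.3e-06). The groups were well apart, and under the 1.5-2.5 hr label they overlapped at 54.8 ± 3.11 and 57.1 ± 2.93 CPM. eIF-1A, which helps the ribosome scan, read 413, 420 and 398 CPM against 271, 289 and 264 CPM under the 0-1 hr label (log2 -0.58 ± 0.08, adjusted p = 7.9e-05). Its stage difference was not called in wild type (log2 -0.15 ± 0.08, adjusted p = 0.082) and was 0.52 ± 0.08 in SHMT (adjusted p = 3.7e-05). Library sizes alone turned the wild-type value to 0.37 (adjusted p = 0.0012), while RLE scaling and DESeq2 called it lower at -0.23. eIF5, which makes eIF2 hydrolyse its GTP, was lower under the 1.5-2.5 hr label (log2 -1.34 ± 0.10 in wild type). eIF5B, the GTPase of subunit joining, was higher there (log2 1.97 ± 0.11 in wild type and 2.16 ± 0.11 in SHMT). In the BDGP6 annotation, another build than that of the counting, CG46312 covers 80.8% of the eIF5 exons. Neither eIF5 nor eIF5B was called between genotypes under the 0-1 hr label (adjusted p = 0.24 and 0.28).

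Ef1alpha48D, the main eEF1A gene, ranked 1 of all 14161 genes by mean CPM in each of the 4 groups, and Ef2b, the gene of eEF2, ranked 2 or 3. The others lay lower, with Ef1gamma at rank 30, Ef1beta at 72, EfTuM at 2637 and Ef1alpha100E at 6031 in wild type under the 0-1 hr label, where eIF-4a and eIF-5A ranked 19 and 29. The 5 cytosolic elongation factors were all lower under the 1.5-2.5 hr label, in wild type and in SHMT. Ef1alpha48D read 20905, 20334 and 21448 CPM in wild type against 13352, 12431 and 16929 CPM in SHMT under the 0-1 hr label (log2 -0.55 ± 0.09, adjusted p = 0.00050). Under the 1.5-2.5 hr label it read 9376, 8459 and 8565 CPM and 10339, 10264 and 9959 CPM. All SHMT libraries thus lay below wild type at the first label and above it at the second, the latter without a call (log2 0.21 ± 0.09, adjusted p = 0.25). Its stage difference was -1.25 ± 0.10 in wild type and -0.48 ± 0.09 in SHMT. Ef1gamma, a subunit of the eEF1A exchange factor, read 3017, 3132 and 3907 CPM in wild type against 1721, 1674 and 2684 CPM in SHMT under the 0-1 hr label (log2 -0.73 ± 0.16, adjusted p = 0.0027). SHMT replicate 3 stood nearest to wild type here too. Without it, the stage difference of Ef1gamma in SHMT was -0.15 (adjusted p = 0.18) instead of -0.41 ± 0.16 (adjusted p = 0.031), and without WT 1.5-2.5 hr replicate 3 or SHMT 1.5-2.5 hr replicate 2 or 3 the call was lost as well, as it was under library sizes alone (log2 -0.12, adjusted p = 0.43).

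Ef1beta, the other exchange subunit, read 2146, 2262 and 2109 CPM against 1734, 1840 and 1879 CPM under the 0-1 hr label (log2 -0.26 ± 0.07, adjusted p = 0.0085). Ef2b read 11484, 11046 and 11060 CPM against 9483, 9635 and 10798 CPM (log2 -0.17 ± 0.06, adjusted p = 0.032). The groups did not overlap for either gene, but library sizes alone ended both calls and turned Ef2b to 0.057, and without WT and SHMT 0-1 hr replicate 1 the adjusted p was 0.12 for Ef1beta and 0.63 for Ef2b. Leaving out WT replicate 1 or SHMT replicate 1 or 2 of the 0-1 hr label also ended the call for Ef2b (adjusted p of up to 0.12). Ef1alpha100E, the second eEF1A gene, was low, at 99, 23 and 54 counts in wild type and 35, 29 and 38 counts in SHMT under the 0-1 hr label, and at 2 to 11 counts per library under the 1.5-2.5 hr label. Its stage difference was -3.85 ± 0.47 in wild type (adjusted p = 5.8e-06). eIF-5A, an elongation factor by current name, behaved like the abundant ones between labels, at 3372 ± 255 and 1208 ± 47.3 CPM in wild type (log2 -1.48 ± 0.08, adjusted p = 2.3e-09). Its genotype difference of -0.21 ± 0.07 under the 0-1 hr label (adjusted p = 0.032) turned to 0.018 under library sizes alone and lost its call without WT 0-1 hr replicate 1 or 2 or SHMT 0-1 hr replicate 1 or 2 (adjusted p of up to 0.12). EfTuM, the mitochondrial EF-Tu, was the only elongation or release factor that was higher under the 1.5-2.5 hr label (log2 0.61 ± 0.21, adjusted p = 0.017 in wild type and 0.59 ± 0.21, adjusted p = 0.021 in SHMT). The EfTuM calls were lost without WT 0-1 hr replicate 1 in wild type (adjusted p = 0.073) and without SHMT 0-1 hr replicate 1 or 2 or SHMT 1.5-2.5 hr replicate 1 in SHMT (adjusted p of up to 0.094).

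eRF1, which reads stop codons, read 589, 573 and 564 CPM in wild type against 602, 604 and 601 CPM in SHMT under the 0-1 hr label. The groups did not overlap, but the difference of 0.07 ± 0.07 was not called (adjusted p = 0.43). It was lower under the 1.5-2.5 hr label by -0.47 ± 0.07 in wild type (adjusted p = 3.6e-05) and -0.65 ± 0.07 in SHMT, and library sizes alone turned the wild-type value to 0.046 (adjusted p = 0.55).

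Under the 1.5-2.5 hr label, no gene of the set was called between genotypes, while 7% of all genes tested were (2.85% higher and 4.15% lower). By edgeR's unadjusted p, 9 of 51 were under 0.05, none passed the 4-fold limit, which 0.654% of all genes passed upwards and 0.523% downwards, and 16 of 51 had libraries that did not overlap, against 36.7% of all genes. DESeq2 called 4 synthetases and 1 factor, beside 769 of all 6884 genes. A fit of these 2 groups alone called 4 synthetases and 4 factors, beside 1226 of all 6884 genes. The main fit called 482 of all 6884 genes. Aats-ala-m came nearest, at 36.3, 38.2 and 37.3 CPM in wild type against 54.1, 50.8 and 53.8 CPM in SHMT (log2 0.51 ± 0.15, adjusted p = 0.065). Aats-leu read 84.4, 87.9 and 89.1 CPM against 72.4, 71.0 and 64.4 CPM (log2 -0.33 ± 0.10, adjusted p = 0.074). Both calls appeared under DESeq2 (adjusted p = 0.0068 and 0.030). When 1 library of the 0-1 hr label was left out, both groups compared stayed whole. The spread, gene filter, scaling and adjustment were computed anew. At most 2 synthetases and 1 factor were then called (without WT replicate 1 or 2, or SHMT replicate 2 or 3). Over all genes, 480 to 586 were called in these runs. The remaining 7 genes at an unadjusted p under 0.05 were eIF5B, Aats-asn, Aats-his, eIF2B-delta, Aats-lys, Aats-ile and Ef1alpha48D, with log2 differences of -0.26 to 0.63.

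Whether the stage difference itself differed between genotypes was asked by the interaction, the SHMT difference minus the wild-type difference. The interaction also equals the genotype difference under the 1.5-2.5 hr label minus that under the 0-1 hr label. It therefore rests on the same libraries, and its calls are not separate evidence from the genotype differences above. It was called for 25 of 51 genes, 11 higher and 14 lower, beside 38.5% of all genes, 12.2% higher and 26.3% lower. Among synthetases 2 were higher and 10 lower (median -0.46), and among factors 9 were higher and 4 lower (median 0.14), with a median of -0.05 over all genes. The share of higher genes among all calls was 31.7%, against 42.4% under RLE scaling and 13.6% under library sizes alone. Library sizes alone moved the median of all genes to -0.29 and gave 0 higher and 14 lower synthetases and 5 higher and 9 lower factors. In 22 of the 25 genes the stage difference was smaller in size in SHMT, beside 86.5% of the 2649 genes called in all. No gene of the set passed 4-fold in the interaction, beside 0.712% of all genes upwards and 2.5% downwards. The genes with a larger stage difference in SHMT were eIF6 (log2 0.61 in wild type and 1.88 in SHMT), eIF-1A (-0.15 and 0.52) and Aats-pro (-0.29 and -0.76). The largest interactions were those of Aats-arg (-1.55 ± 0.14, adjusted p = 2.0e-05), Aats-trp (-1.30 ± 0.14, adjusted p = 5.1e-05), eIF6 (1.27 ± 0.13, adjusted p = 4.8e-05) and eIF3-S10 (1.26 ± 0.32, adjusted p = 0.0091). The calls of 7 genes were lost when 1 library was left out, and the same 7 with no minimum beyond 1 count (adjusted p of 0.060 to 0.27). For Aats-tyr, eIF-3p66 and eIF-4a these were WT 1.5-2.5 hr replicate 2 and SHMT 0-1 hr replicates 1 and 2, with adjusted p of up to 0.058, 0.055 and 0.059. Aats-met, Aats-pro, Ef1beta and eIF3-S8 lost theirs without any of 8 to 10 libraries, with adjusted p of up to 0.083, 0.10, 0.095 and 0.097.

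The summed level of each class was set beside the counts of genes. The 21 synthetases summed to 2009 ± 107 CPM in wild type against 2007 ± 145 CPM in SHMT under the 0-1 hr label, with Aats-ile, Aats-thr, Aats-lys and Aats-tyr holding most of the sum. These equal sums rest on the TMM scaling. As unscaled shares of the reads in genes, the synthetases took 0.154 to 0.166% in wild type and 0.184 to 0.195% in SHMT, which did not overlap. The sums were 2507 ± 46.5 and 2596 ± 69.6 CPM under the 1.5-2.5 hr label. The 35 factors summed to 55128 ± 1172 CPM in wild type against 43175 ± 4289 CPM in SHMT under the 0-1 hr label, and to 24973 ± 773 and 26653 ± 519 CPM under the 1.5-2.5 hr label. The elongation and release factors gave most of this, with 38269 ± 879, 28733 ± 3711, 16091 ± 679 and 17536 ± 225 CPM in the same order. In SHMT under the 0-1 hr label replicate 3 stood apart at 48098 CPM over all factors, against 41185 and 40244 CPM in replicates 1 and 2. As shares of reads in genes, with no scaling, the factors took 4.37 to 4.49% in wild type, 3.92 to 4.32% in SHMT under the 0-1 hr label and 2.80 to 3.08% under the 1.5-2.5 hr label. These sums carry no test.

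**Figure D5:**
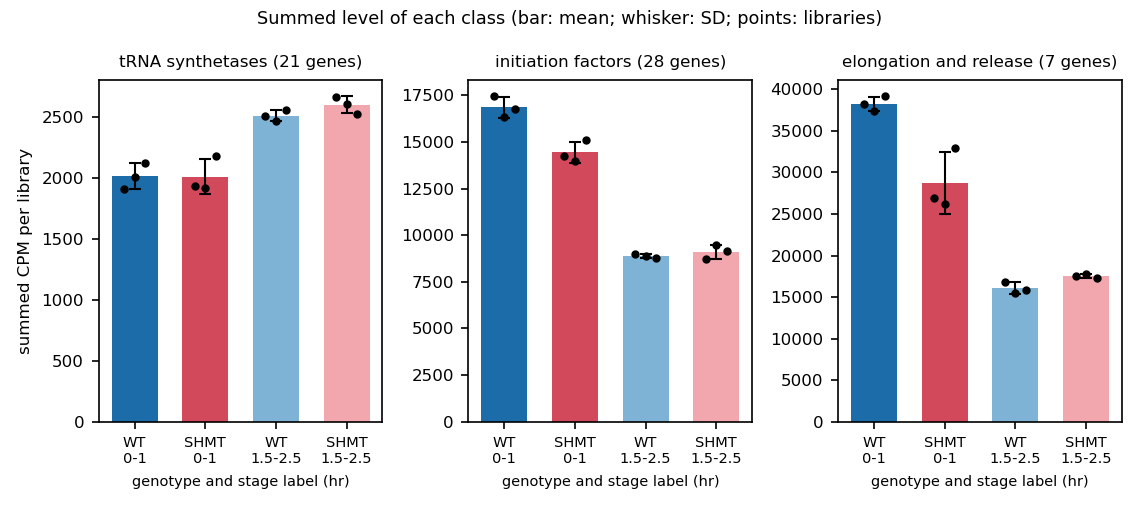
Summed TMM-scaled CPM of the synthetases, the initiation factors and the elongation and release factors in each library (points), with the mean (bar, from 0) and SD (whisker) of 3. Synthetases sum to 2009 and 2007 CPM under the 0-1 hr label and to 2507 and 2596 CPM at the other, in wild type and SHMT, while elongation and release factors sum to 38269 CPM (wild type) and 28733 CPM (SHMT) under the 0-1 hr label and to 16091 and 17536 CPM at the other.

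Other genes of the pathway carry different symbols and were taken from lists by current name. Of 15 further genes listed with the tRNA synthetases, 7 were higher and 0 lower in SHMT under the 0-1 hr label (median 0.28), where 32.9% of all genes were called higher and 25.8% lower. The 15 are genes rather than enzymes. They include CG2263 and CG5706, the alpha and beta subunits of the phenylalanyl enzyme, and CG31133 (SLIMP), a synthetase-like protein. Between labels in wild type 11 were higher and 2 lower under the 1.5-2.5 hr label (median 3.15), beside 45.4% and 45.9% of all genes. In both comparisons the share called, 7 of 15 and 13 of 15, was no larger than the 58.7% and 91.3% over all genes. The lowest adjusted p between genotypes belonged to CG33123, the cytosolic leucyl enzyme, at 7.30 ± 0.45 and 20.4 ± 2.6 CPM (log2 1.49, adjusted p = 8.5e-07), followed by CG5660, the mitochondrial valyl enzyme (log2 1.84), and CG10092, the mitochondrial arginyl enzyme (log2 1.17). Of the 3 scaffold genes of the synthetase complex, CG12304 (AIMP2) was called between genotypes under the 0-1 hr label (log2 0.23), and all 3 were higher under the 1.5-2.5 hr label in wild type.

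Among 14 genes of cap-binding control and TOR signalling, 7 were higher and 3 lower in SHMT under the 0-1 hr label. The counts of this and the next lists stand beside 58.7% of all genes called, 32.9% higher and 25.8% lower, and nothing is read from them about the lists. Thor, the 4E-BP that sequesters eIF4E, read 8.57 ± 0.39 and 16.1 ± 2.7 CPM (log2 0.91, adjusted p = 0.00015), Tsc1, a repressor of TOR, differed by -0.71 (adjusted p = 0.00063), and 4EHP, a cap-binding repressor, by 0.37 (adjusted p = 0.0011). Of 10 tested poly(A)-binding proteins and translational repressors, 5 were higher and 2 lower, with NAT1, a relative of eIF4G, at -1.50 (adjusted p = 1.3e-05), aret (Bruno) at 1.23 (adjusted p = 7.4e-05) and brat at 1.01 (adjusted p = 0.00076). A list of 6 genes held members of the integrated stress response and, with Atf6 and Xbp1, of the unfolded protein response. Gcn2, the kinase that senses uncharged tRNA, was lower (log2 -0.51, adjusted p = 0.0013) and Atf6 higher (log2 0.37, adjusted p = 0.026). The gene crc, the fly ATF4 that is translated when eIF2alpha is phosphorylated, was not called (log2 0.06, adjusted p = 0.60). Of 3 further genes of termination and recycling, pelo, which rescues stalled ribosomes, was higher (log2 1.34, adjusted p = 7.8e-05), its partner HBS1 lower (log2 -1.07, adjusted p = 0.00060) and pix, the recycling ATPase, higher (log2 0.21, adjusted p = 0.015). Of 6 further mitochondrial translation factors, 3 were higher and 1 lower.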

How the data were processed

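The authors deposited 1 table of raw read counts per gene for each of the 12 libraries. Per the submitters' processing notes, CASAVA 1.8.2, Bowtie2 2.1.0, HTSeq and the genome build dm3 were used, and the strand setting of the counting is not given in the sources used here. Each table ends in 5 summary lines, left out here, of which reads outside genes were 4.57 to 11.7% of all reads. Groups follow the labels. The 6884 genes that averaged 50 counts or more in any 1 group were fitted with edgeR 4.0.16 (quasi-likelihood, TMM, all 12 libraries, 4 group means, R 4.3.3), and a call is a Benjamini-Hochberg adjusted p under 0.05 over all these genes. The spread is that between the study's replicates. The study names them biological triplicates, while the labels do not state their separate origin. The fit was checked on simulated counts with 200 changed genes per run. In the genotype comparison under the 0-1 hr label it recovered 48.5% of 1.5-fold and 87.5% of 2-fold changes. In the wild-type stage comparison it recovered 44% and 87%. The genotype comparison under the 1.5-2.5 hr label was not simulated. A gene that was not called may therefore still differ by 1.5-fold. DESeq2 1.42.0, other scalings, filters, a replicate block and left-out libraries were tried. Current names, chromosomes, exon lengths and exon overlaps came from reference tables of BDGP6, another build, so no coordinates are given. Replicate libraries differed by more than sampling noise. The members and lists were chosen with earlier results of these data known. Genes given in full are the 4 with the largest called difference per comparison, class and direction, plus a fixed set of main factors and the enzymes for glycine, serine and methionine.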

Additional observations from a re-analysis of the deposited data

Results flagged for a closer look

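The interaction calls listed here are those given above and rest on the same libraries as the genotype differences. In 25 genes the stage difference differed between genotypes by the interaction test. Among the synthetases its log2 values were -1.55 (Aats-arg), -1.21 (Aats-asn), -0.94 (Aats-asp), -1.06 (Aats-cys), -0.90 (Aats-glupro), -0.67 (Aats-gly), -1.05 (Aats-leu), 0.44 (Aats-met), -0.46 (Aats-pro), -0.92 (Aats-ser), -1.30 (Aats-trp) and 0.36 (Aats-tyr). Among the initiation factors they were 0.67 (eIF-1A), 0.45 (eIF-3p66), -1.12 (eIF-4E), 0.31 (eIF-4a), -1.20 (eIF2B-epsilon), -0.80 (eIF2B-gamma), 1.26 (eIF3-S10), 0.43 (eIF3-S8), -0.84 (eIF4G2) and 1.27 (eIF6). Among the elongation factors they were 0.76 (Ef1alpha48D), 0.29 (Ef1beta) and 0.92 (Ef1gamma). Adjusted p ran from 2.0e-05 (Aats-arg) to 0.040 (eIF3-S8).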

How the results depend on the processing

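Of 208 class counts recomputed under other settings, 195 stayed within 1.5 times of the reported count, and of 5289 differences of single genes 5014 kept their direction and their side of the threshold, 193 lost a call, 77 gained one and 5 reversed. The 19 factors called between genotypes at the 0-1 hr label became 10 with no minimum beyond 1 count, 12 at an adjusted p under 0.01 and 12 without the 2 libraries with over 11% of reads outside genes. Over all genes, the 4040 calls became 4014, 2934 and 3270 under the same settings. At the 1.5-2.5 hr label the count of 0 became 4 synthetases and 4 factors in a fit of these 2 groups alone, 4 synthetases and 1 factor under DESeq2 and 1 factor under RLE scaling, and leaving out 1 library gave 0 to 2 synthetases and 0 to 1 factors. Over all genes, the 482 calls at this label became 1226, 769 and 455 in the same order, and 296 to 586 with 1 library left out. Library sizes alone reversed Ef2b (0.057) and eIF-5A (0.018) between genotypes at the 0-1 hr label, and Aats-pro (0.22), eIF-1A (0.37) and eRF1 (0.046) between labels in wild type, as the median of all genes moved by construction of the scaling, from -0.04 to 0.48 in the latter. It also gave synthetase sums of 1616 (wild type) and 1887 CPM (SHMT) under the 0-1 hr label and 2892 and 2971 CPM under the 1.5-2.5 hr label, and factor sums of 44362, 40570, 28808 and 30489 CPM in the same order, so that the synthetase sums of the genotypes were no longer equal and the factor sums lay closer under the 0-1 hr label. Same-numbered replicates correlated at -0.22 to 0.54 in their deviations. Between genotypes at the 1.5-2.5 hr label, replicates 2 and 3 gave 0.53 and 0.54 and replicate 1 gave -0.22. With 3 pairs per comparison, these values cannot decide whether the numbers pair the samples. With the replicate block the called synthetases and factors were 14 and 19 between genotypes at the 0-1 hr label, 0 and 0 at the other, 20 and 27 between labels in wild type, 21 and 27 in SHMT, and 11 and 13 in the interaction, where Aats-pro lost its call (adjusted p = 0.056). Over all genes the block called 3971, 418, 6293, 6061 and 2595 in the same order, against 4040, 482, 6285, 6016 and 2649 without it. Genes at a few counts, such as Ef1alpha100E at the 1.5-2.5 hr label, are limited by depth.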
